A study of Rattus norvegicus with 10 samples.

Results

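The pyruvate dehydrogenase genes were followed across paced and resting cultures of newborn rat heart muscle cells. The set held the 10 listed genes Pdha1, Pdhb, Dlat, Dld, Pdk1, Pdk2, Pdk3, Pdk4, Pdp1 and Pdp2, and every array probe set annotated with 1 of these symbols was taken. Of the 10 genes, 9 had a probe set, out of 14217 gene symbols on the array, and Dlat was not analysed here because no probe set carried its symbol. The 9 genes were read by 15 probe sets, and all 15 passed the filter on low values. Gene expression was measured on Affymetrix arrays in ventricular cardiomyocyte cultures from 0 to 3 day old Lewis rats. After recovery the cultures were kept for 3 days under 1 of 3 conditions. Pulsed cultures with blebbistatin (3 arrays) received electric pulses at 1 Hz and 2 V/cm together with 10 µmol/L of this myosin II inhibitor, which blocks contraction. Pulsed cultures (4 arrays) received the pulses alone, and nonpulsed cultures (3 arrays) received neither. No array held nonpulsed cells with blebbistatin, so blocked contraction and other actions of the drug cannot be told apart. The sample titles carry 4 dates, taken here as culture series 1 to 4, and do not say what the date marks. The RNA on an array was a pool of duplicate experiments. In series 2 and 3 all 3 groups were present, while series 1 lacked blebbistatin and series 4 lacked nonpulsed cells.

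The pyruvate dehydrogenase complex of the mitochondrial matrix turns pyruvate into acetyl-CoA and so sets how much glucose carbon enters the tricarboxylic acid cycle. Its E1 enzyme removes carbon dioxide from pyruvate, its E2 core passes the acetyl group to coenzyme A, and its E3 enzyme restores the oxidised lipoyl group. The Pdk kinases phosphorylate E1 and switch the complex off, and the Pdp phosphatases switch it on again. In the heart this switch is known for its part in the choice between glucose and fatty acids as fuel.

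The promoters of the kinase genes Pdk1, Pdk2 and Pdk4 are shown because these 3 genes had the largest fitted changes of the set against nonpulsed cultures. Each window runs from 250 bases before to 50 bases after a start of the gene in RefSeq (build GRCr8) and is written along the gene's own strand. Only the first window listed for a gene was used, and any other start site was not searched. Capitals mark matches, on either strand, to ACGTG, the core of the element bound by low oxygen factors, to AGGTCA, a nuclear receptor half-site, or to GTAAACA, a forkhead site. The windows are chr3:77113264-77113563 on the plus strand for Pdk1, chr10:80483863-80484162 on the minus strand for Pdk2 and chr4:34568280-34568579 on the minus strand for Pdk4.
Pdk1: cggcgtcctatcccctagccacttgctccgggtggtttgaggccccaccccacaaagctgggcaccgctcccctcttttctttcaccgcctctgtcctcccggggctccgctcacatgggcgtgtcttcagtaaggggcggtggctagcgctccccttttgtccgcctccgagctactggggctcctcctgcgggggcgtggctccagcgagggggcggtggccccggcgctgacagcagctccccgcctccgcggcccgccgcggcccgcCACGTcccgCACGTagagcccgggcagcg
Pdk2: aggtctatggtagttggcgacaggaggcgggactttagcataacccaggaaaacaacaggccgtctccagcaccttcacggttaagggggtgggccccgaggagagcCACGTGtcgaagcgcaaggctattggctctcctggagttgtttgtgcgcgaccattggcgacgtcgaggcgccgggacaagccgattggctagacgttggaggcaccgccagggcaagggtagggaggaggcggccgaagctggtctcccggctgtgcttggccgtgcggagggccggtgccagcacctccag
Pdk4: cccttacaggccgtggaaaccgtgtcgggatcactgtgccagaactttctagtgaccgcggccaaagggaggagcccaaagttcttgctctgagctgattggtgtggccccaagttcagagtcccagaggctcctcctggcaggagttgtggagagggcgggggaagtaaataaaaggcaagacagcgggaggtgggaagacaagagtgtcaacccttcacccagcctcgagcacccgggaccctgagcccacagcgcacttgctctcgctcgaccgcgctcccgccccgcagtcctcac
The Pdk1 window held 2 matches to ACGTG, both just after the start site. The Pdk2 window held 2 overlapping matches to ACGTG, which together spell the palindrome CACGTG. The Pdk4 window held none of the 3 motifs and so has no capitals. Of 33469 promoter windows of the same length, 19.3% held ACGTG, 16.2% held AGGTCA and 3.78% held GTAAACA. Of the 10 genes, 8 had a window in the table, and of the windows not shown Pdhb, Dlat and Pdk3 held ACGTG, Pdhb and Dlat held AGGTCA and Pdhb held GTAAACA. These matches describe letters in the window and are no evidence of binding.

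The cultures showed the markers of their label. Of 12 ventricular cardiomyocyte markers, 11 had a probe set, and their median log2 signal lay between 12.57 and 13.35 over the 10 arrays. Of these, 0 lay at the lowest level of the array on any array. The same held for the fibroblast and the smooth muscle and pericyte markers, so this count does not set the label apart. Markers of other cell types were present too. The median log2 signal of 10 fibroblast markers lay between 10.58 and 12.84 over the 10 arrays, that of 9 smooth muscle and pericyte markers between 7.88 and 10.65, that of 7 endothelial markers between 5.90 and 7.37, and that of 9 macrophage and leukocyte markers between 6.66 and 7.76. The endothelial marker Vwf and the macrophage marker C1qa reached the lowest level on at least 1 array. In whole cultures of this kind, fewer cells of a type and less RNA per cell cannot be told apart.

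1 array stood apart for the pyruvate dehydrogenase genes. The nonpulsed array of series 1 was the lowest of the 10 arrays for 11 of the 15 probe sets, against 22.6% of all 23281 probe sets tested. On that array the median of the cardiomyocyte markers was 12.57, the lowest of the 10, while the fibroblast median (12.84) and the smooth muscle and pericyte median (10.65) were the highest. The fibroblast median was nearly as high on the pulsed array of series 1 (12.81), while the next smooth muscle and pericyte median was 9.72. The excess of 3' over 5' signal for beta-actin, which reflects RNA integrity, was 0.45 on that array and 0.60 to 0.77 on the others. For GAPDH the excess was 0.17 on that array and 0.06 to 0.22 on the others, and for hexokinase 0.85 and 0.80 to 1.04. These last controls did not set the array apart. The part of these values in the results was not tested. The differences by series are given beside the pulsed against nonpulsed results below.

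**Figure D1:**
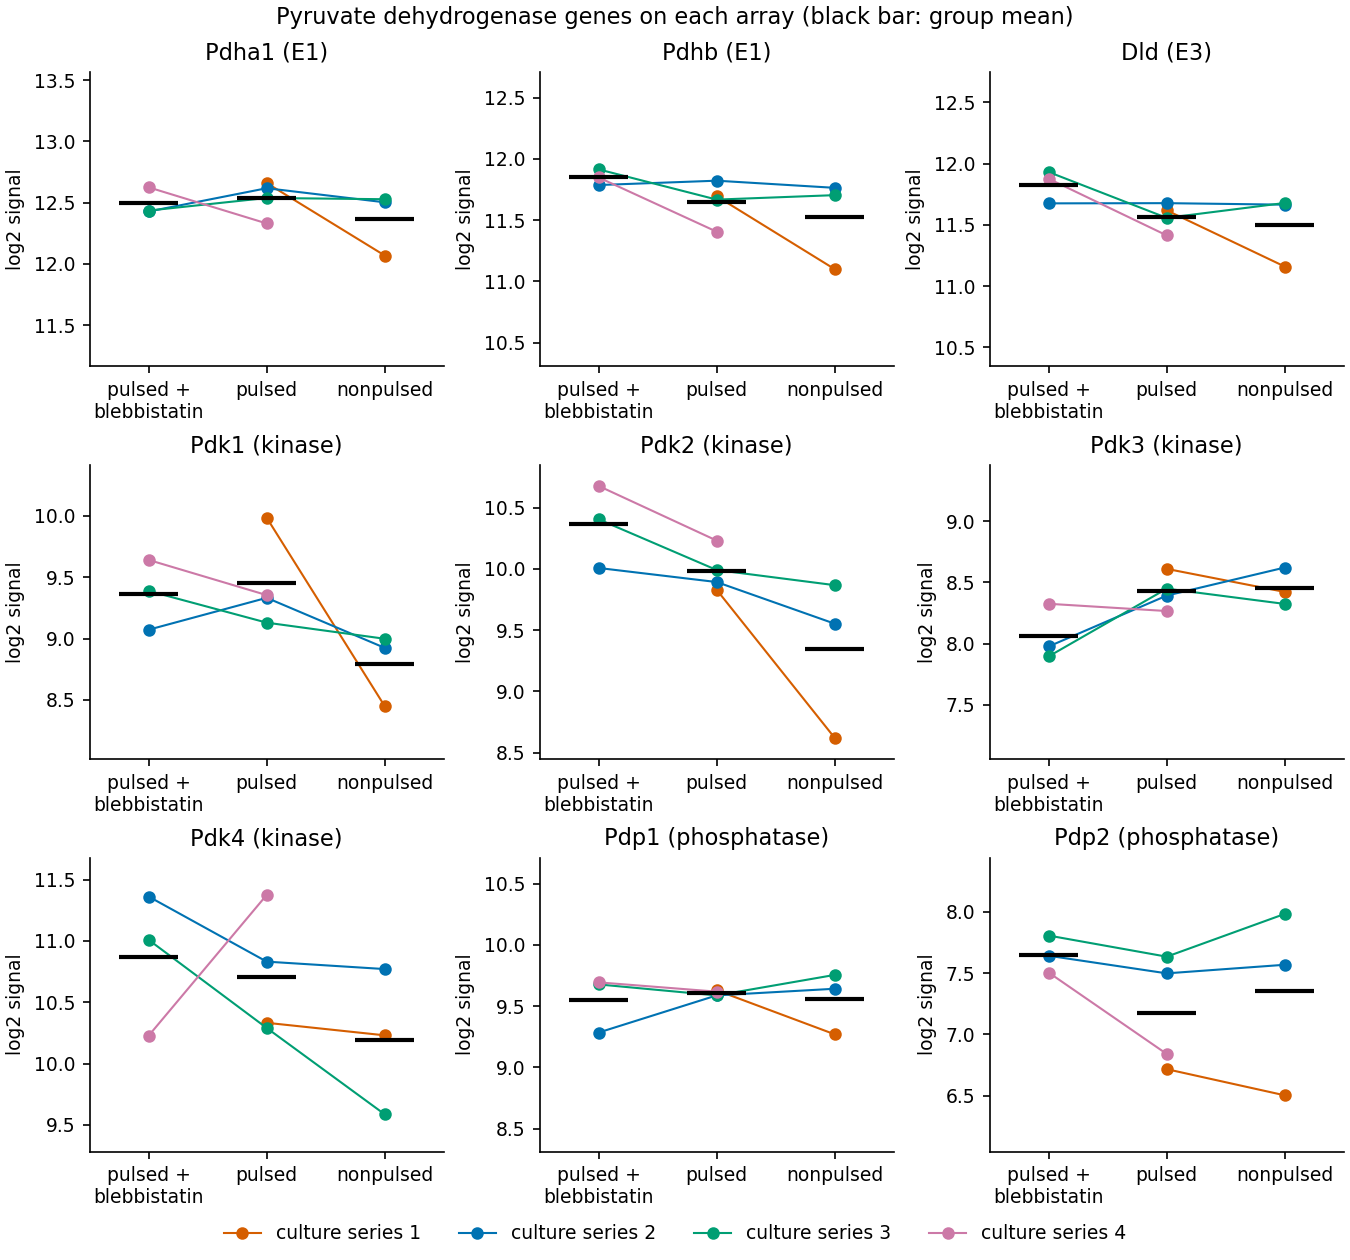
Log2 signal of the main probe set of each gene on every array (points, coloured by culture series and joined within a series) with the group mean (black bar); all panels span the same number of log2 units. The nonpulsed array of series 1 sits lowest for Pdha1, Pdhb, Dld, Pdk1, Pdk2, Pdp1 and, with the pulsed array of series 1 next to it, Pdp2, while Pdk4 in series 4 runs against series 2 and 3.

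Of the catalytic subunits, Pdha1 and Pdhb encode the alpha and beta chains of E1, and Dld encodes E3, which also serves the 2-oxoglutarate and branched-chain keto acid dehydrogenases and the glycine cleavage system. Their signals were among the brightest of the array, at the percentiles 99.2, 98.1 and 98.0 of mean log2 signal over all probe sets, a rank that says nothing of the amount of each RNA against another. Pdha1 (probe set 1371380_at) measured 12.43, 12.44 and 12.62 in pulsed cultures with blebbistatin, 12.66, 12.62, 12.54 and 12.33 in pulsed cultures and 12.07, 12.50 and 12.53 in nonpulsed cultures. The 3 groups overlapped, and the nonpulsed array of series 1 was the lowest of the 10. Pdhb (1371388_at) measured 11.79, 11.91 and 11.85 in pulsed cultures with blebbistatin, 11.69, 11.82, 11.67 and 11.41 in pulsed cultures and 11.10, 11.76 and 11.70 in nonpulsed cultures. The blebbistatin arrays all lay above the nonpulsed arrays for Pdhb, by 0.02 log2 units at the closest, and overlapped the pulsed arrays. Dld (1373016_at) measured 11.68, 11.93 and 11.88 in pulsed cultures with blebbistatin, 11.62, 11.68, 11.56 and 11.41 in pulsed cultures and 11.16, 11.66 and 11.68 in nonpulsed cultures. Dld had its 2 highest values in the blebbistatin arrays of series 3 and 4.

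Among the kinases, Pdk1 is a known target of the low oxygen factor HIF-1. Pdk1 (1390203_at) measured 9.07, 9.39 and 9.64 in pulsed cultures with blebbistatin, 9.99, 9.33, 9.13 and 9.35 in pulsed cultures and 8.45, 8.92 and 8.998 in nonpulsed cultures. All arrays of both pulsed groups lay above all nonpulsed arrays, and the pulsed array of series 1 was the highest of the 10. Its other probe set, 1368079_at, spanned 8.29 to 9.99, with the same lowest and highest arrays, and its pulsed and nonpulsed arrays overlapped.

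Pdk2, the most widely expressed kinase of the family, responds to acetyl-CoA and NADH. Pdk2 (1367892_at) measured 10.01, 10.40 and 10.68 in pulsed cultures with blebbistatin, 9.83, 9.89, 9.99 and 10.23 in pulsed cultures and 8.62, 9.55 and 9.87 in nonpulsed cultures. Within each of series 2 and 3 the order was the same, with blebbistatin highest and nonpulsed lowest, and the blebbistatin arrays did not overlap the nonpulsed ones. Its other probe set, 1386975_at, was dimmer (6.94 to 8.80), and the gap between the 2 probe sets varied by 0.13 (SD) over the 10 arrays. That probe set did not keep the order, and its blebbistatin and nonpulsed arrays overlapped. With blebbistatin, pulsed and nonpulsed it measured 7.91, 7.98 and 7.72 in series 2 and 8.62, 8.05 and 8.12 in series 3.

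Pdk3 is a kinase best known from testis, kidney and brain. Pdk3 (1372229_at) measured 7.98, 7.90 and 8.33 in pulsed cultures with blebbistatin, 8.61, 8.39, 8.45 and 8.27 in pulsed cultures and 8.42, 8.62 and 8.32 in nonpulsed cultures. The blebbistatin arrays of series 2 and 3 were the 2 lowest of the 10, and that of series 4 fell among the other groups. Its other probe set (1384315_at) ranged from 6.95 to 7.88 and had its lowest values on the same 2 arrays.

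Pdk4 is known to be switched on by fasting and fatty acids through PPAR receptors. Pdk4 (1378074_at) measured 11.36, 11.01 and 10.23 in pulsed cultures with blebbistatin, 10.33, 10.83, 10.29 and 11.38 in pulsed cultures and 10.23, 10.77 and 9.59 in nonpulsed cultures. The 3 groups overlapped widely. In series 4 the pulsed array was the highest of all and the blebbistatin array 1.15 log2 units lower, whereas in series 2 and 3 the blebbistatin array was higher than the pulsed one by 0.53 and 0.72. The other probe set, 1369150_at, gave the same picture (-0.90 in series 4, 0.39 and 0.83 in series 2 and 3), with r = 0.99 between the 2 probe sets over 10 arrays of 4 series, which share RNA and so say nothing of the replicate error.

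Pdp1 is the calcium-stimulated phosphatase, and Pdp2 is the isoform known to fall with starvation and to respond to insulin. Pdp1 (1368910_at) measured 9.28, 9.68 and 9.69 in pulsed cultures with blebbistatin, 9.63, 9.59, 9.59 and 9.62 in pulsed cultures and 9.27, 9.64 and 9.75 in nonpulsed cultures. The 4 pulsed arrays agreed within an SD of 0.02. Pdp2 (1370509_at) measured 7.64, 7.81 and 7.50 in pulsed cultures with blebbistatin, 6.72, 7.50, 7.63 and 6.84 in pulsed cultures and 6.50, 7.57 and 7.98 in nonpulsed cultures. For Pdp2 the 2 arrays of series 1 were lowest, and all arrays of series 2 and 3 were at 7.50 or above after rounding. In series 4 the blebbistatin array was at 7.50 and the pulsed array at 6.84. The other probe set, 1380045_at, ranged from 6.13 to 7.45 and also had its lowest value on the nonpulsed array of series 1.

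Pulsed and nonpulsed cultures were set against each other to see how the genes respond to pacing. Pdk1 and Pdk2 had the largest fitted changes of the set, both positive, with Pdk4 next, while the E1 and E3 subunits and the phosphatases had smaller ones. The log2 change was 0.64 for Pdk1 (SE 0.25, 95% interval 0.04 to 1.23) and 0.52 for Pdk2 (SE 0.20, interval 0.06 to 0.98). Of all fitted changes, 98.8% were smaller than that of Pdk1 and 97.3% smaller than that of Pdk2. In limma with culture series as a block, 0 of the 15 probe sets passed the Benjamini-Hochberg adjusted threshold of 0.05, as did 0% of the 23281 tested, and the smallest adjusted p was 0.514 among the members and 0.48 among all. At an unadjusted p under 0.05 there were 2 member probe sets (the main ones of Pdk1 and Pdk2), and 9.08% of all probe sets. Both were higher, as were 7.71% of all, and 0 were lower, against 1.36% of all.

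The Pdk1 and Pdk2 differences rested mostly on series 1. Pdk1 differed by 1.54, 0.41 and 0.13 in series 1, 2 and 3, and Pdk2 by 1.21, 0.34 and 0.12. The 11 cardiomyocyte markers had a median of 0.28 in the fit and of 0.80, 0.19 and 0.02 in the same series, and their part in the result was not tested. Both were positive in every series, but without series 1 the fitted change was 0.22 for Pdk1 (SE 0.15) and 0.20 for Pdk2 (SE 0.12), and 0 member probe sets had an unadjusted p under 0.05. The other probe sets had changes of 0.51 for Pdk1 and 0.45 for Pdk2, each with a negative difference in series 3 (-0.15 and -0.06).

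Pdk4 had a fitted change of 0.50 (SE 0.35, interval -0.32 to 1.31), with differences of 0.10, 0.06 and 0.70 in series 1, 2 and 3, so that series 3 had the largest one. Without series 3 the change was 0.30 (SE 0.38), and without series 4, which holds no nonpulsed array but enters through the shared fit, it was 0.29 (SE 0.17). Pdk3 was at -0.04 (SE 0.14, interval -0.38 to 0.30). The subunit genes had a median change of 0.16, with Pdha1 at 0.18 (SE 0.15), Pdhb at 0.16 (SE 0.15) and Dld at 0.08 (SE 0.14), against a median of 0.04 over all probe sets. By series 1, 2 and 3 their median differences were 0.59, 0.06 and -0.04. Pdp1 was at 0.02 (SE 0.14) and Pdp2 at -0.13 (SE 0.15). In all, 11 of the 15 probe sets had a positive change, against 61.1% of all probe sets. The pulsed array was higher in every series for 5 of the 15, namely both of Pdk4 and the main ones of Pdha1, Pdk1 and Pdk2, against 24.1% of all, and was lower in every series for 0, against 10% of all. The pulsed and nonpulsed arrays did not overlap for 1 of the 15, the main probe set of Pdk1, against 6.17% of all that were higher without overlap, and 0 were lower without overlap, against 1.16%.

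**Figure D2:**
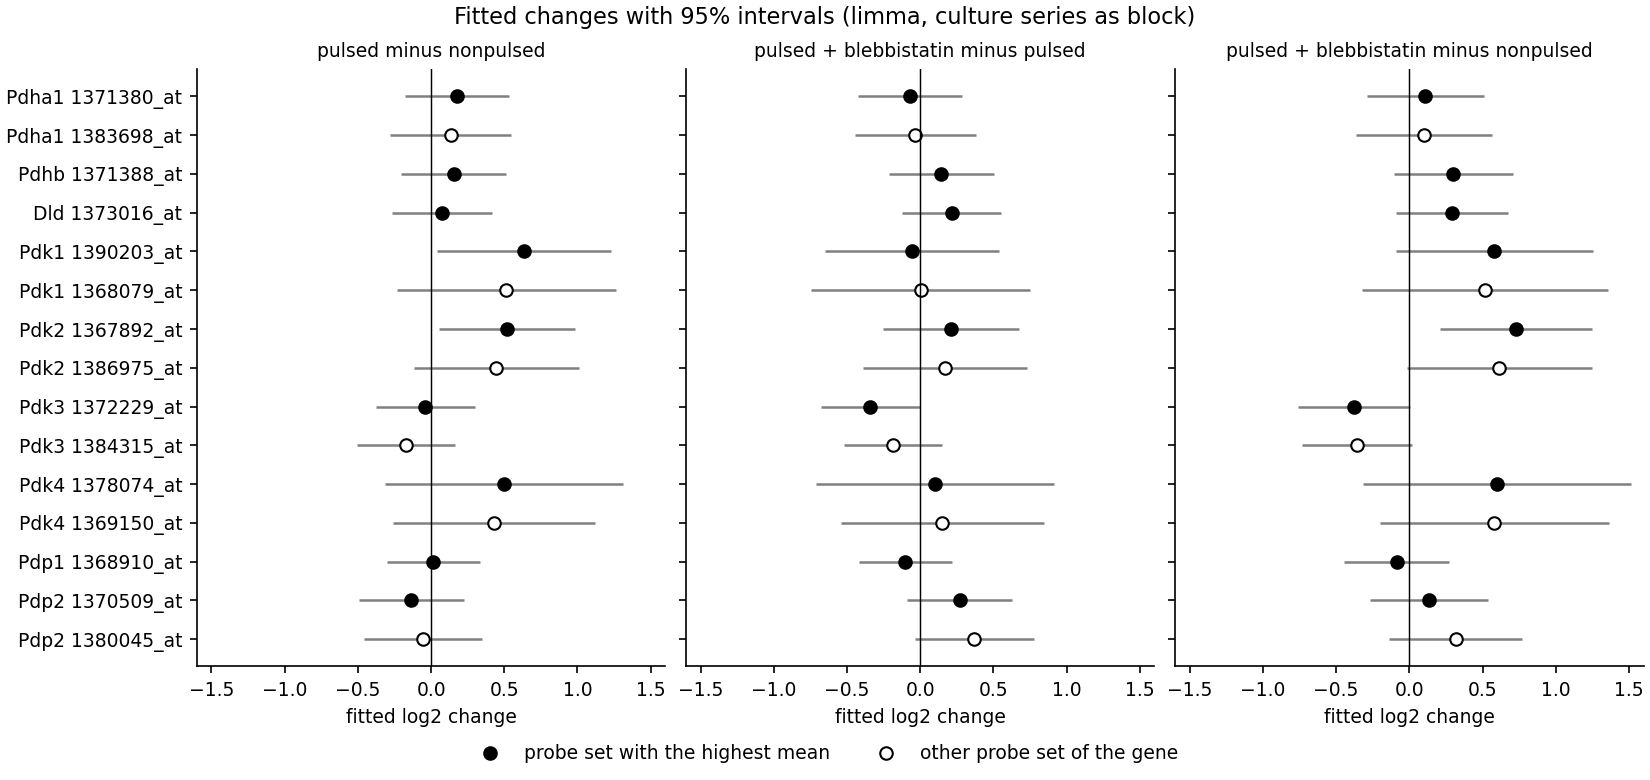
Fitted log2 change (limma, culture series as a block) of the 15 probe sets in each comparison, with 95% intervals (bars); filled points are the probe set with the highest mean of each gene, open points its other probe set. Intervals clear of 0 are seen for Pdk1 (0.64) and Pdk2 (0.52) in pulsed against nonpulsed cultures, for Pdk3 (-0.34) with blebbistatin against pulsed and for Pdk2 (0.73) with blebbistatin against nonpulsed.

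Blebbistatin was compared with pacing alone to see what differed when paced cells could not contract. Pdk3 had the largest negative change of the set and Pdp2 the largest positive one. The log2 change was -0.34 for Pdk3 (SE 0.14, interval -0.68 to -0.003) and 0.27 for Pdp2 (SE 0.15, interval -0.09 to 0.63). In limma 0 of the 15 probe sets passed the adjusted threshold, against 0.0129% of all, and the smallest adjusted p among the members was 0.426. At an unadjusted p under 0.05 there was 1 member probe set, that of Pdk3, and 11.6% of all probe sets. It was lower, as were 5.51% of all. The Pdp2 differences were 0.14, 0.17 and 0.66 in series 2, 3 and 4, and without series 4 the fitted change was 0.09 (SE 0.15). Its other probe set had a larger change of 0.37 (SE 0.17), with differences of -0.02, 0.24 and 0.94 in the same series.

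Pdk3 differed by -0.41, -0.55 and 0.06 in series 2, 3 and 4, so series 4 did not share the sign. Without series 4 the fitted change was -0.52 (SE 0.14, limma adjusted p = 0.424). Its other probe set had a change of -0.19 (SE 0.14). Beside it, 9 of the 10 fibroblast markers and all 9 smooth muscle and pericyte markers had a negative change, with medians of -0.29 and -0.66. So did 8 of 9 macrophage and leukocyte markers and 4 of 5 tested endothelial markers, with medians of -0.23 and -0.13. The 11 cardiomyocyte markers had a median of 0.00. Of all probe sets, 55.5% had a positive change. The summed linear signal of the smooth muscle and pericyte list was 12400 to 14900 in pulsed cultures with blebbistatin and 19100 to 21400 in pulsed cultures, and that of the fibroblast list was 37100 to 57300 with blebbistatin and 43700 to 69500 in pulsed cultures. The part of these cell type markers in the Pdk3 result was not tested.

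Pdk4 had a fitted change of 0.10 (SE 0.35, interval -0.71 to 0.91), which joins differences of 0.53, 0.72 and -1.15 in series 2, 3 and 4. Without series 4 the change was 0.67 (SE 0.20, limma adjusted p = 0.477), and without series 3 it was -0.26 (SE 0.38). The sign for Pdk4 thus depended on which series entered. Angptl4, an inhibitor of lipoprotein lipase and like Pdk4 a PPAR target, had differences of 1.04, 0.73 and -3.04 in the same series.

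The subunit genes had a median change of 0.14, with Dld at 0.21 (SE 0.14), Pdhb at 0.14 (SE 0.15) and Pdha1 at -0.07 (SE 0.15), against a median of 0.02 over all probe sets. Pdhb and Dld had their largest differences in series 4 (0.44 and 0.46) and were near 0 in series 2 (-0.04 and -0.00). Pdk2 was at 0.21 (SE 0.20) with differences of 0.11, 0.41 and 0.45, Pdk1 at -0.06 (SE 0.25) and Pdp1 at -0.10 (SE 0.14). The blebbistatin array was higher in every series for 2 of the 15 probe sets, the main ones of Pdk2 and Pdp2, against 23.5% of all, and lower in every series for 0, against 15.2%. In 9 of the 15 the fitted change was positive, against 55.5% of all. The groups overlapped for all 15, while 6.18% of all probe sets were higher and 3.67% lower without overlap.

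**Figure D3:**
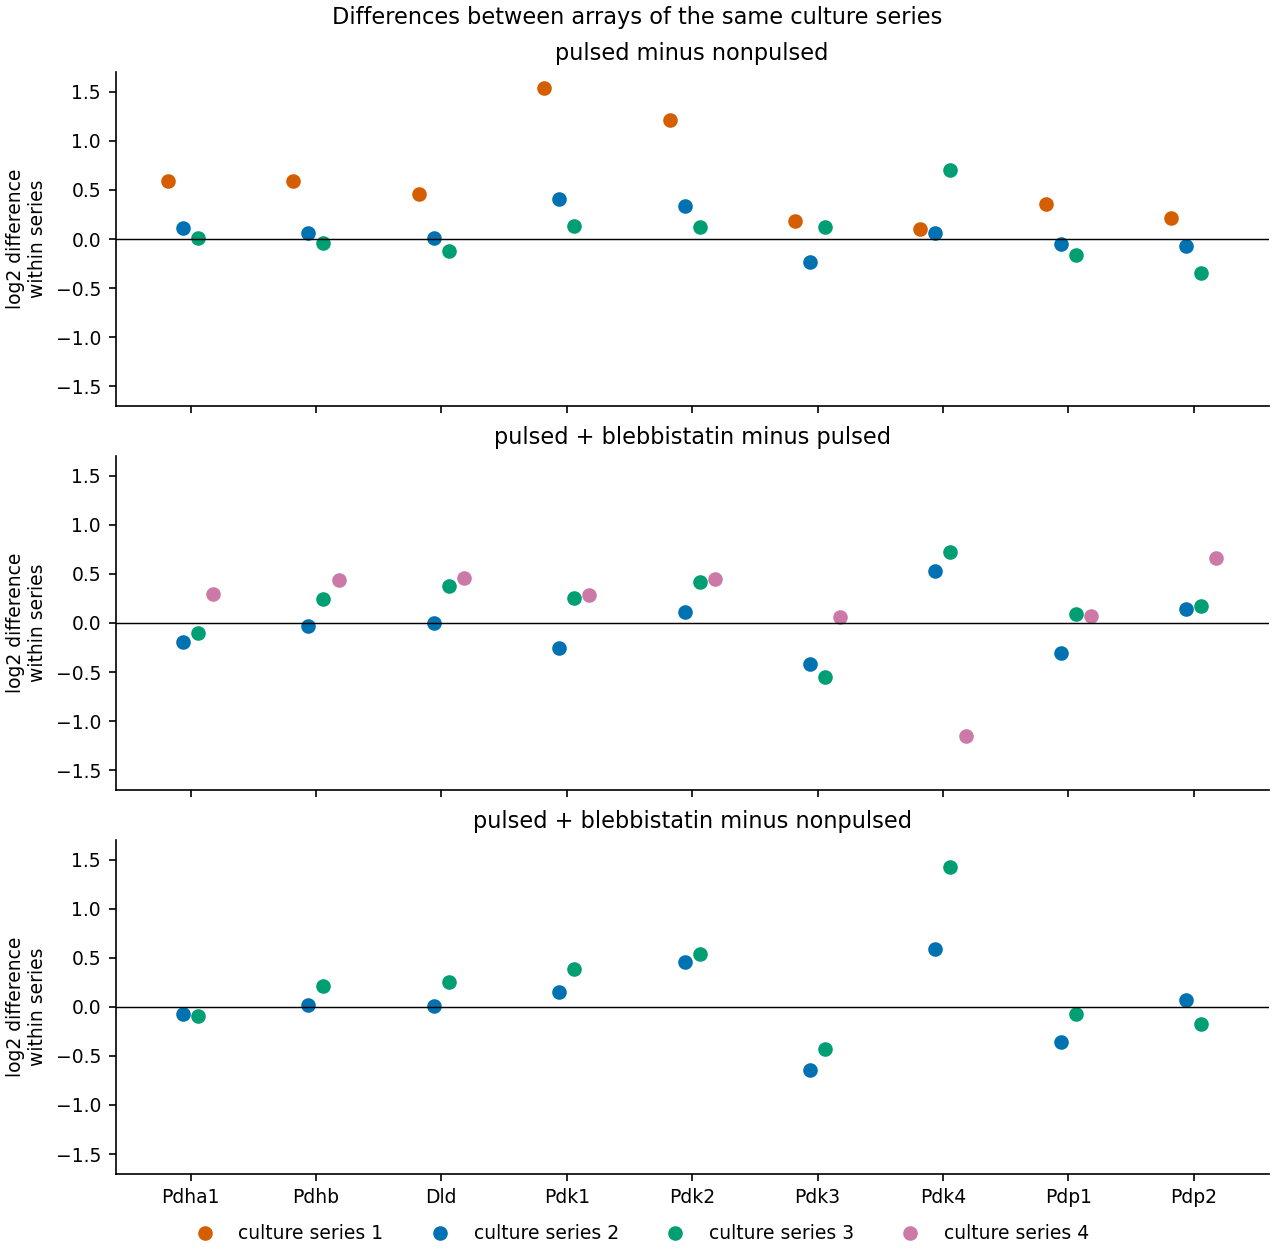
Log2 difference between arrays of the same culture series for the main probe set of each gene, in the 3 comparisons (points coloured by series; the line marks 0). Series 1 gives the most positive pulsed minus nonpulsed difference for every gene but Pdk4 (1.54 for Pdk1), and series 4 gives Pdk4 a difference of -1.15 with blebbistatin against positive values in series 2 and 3.

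The comparison of pulsed cultures with blebbistatin and nonpulsed cultures gave the widest separation of the kinases. It shares its arrays with the comparisons above, so its values are no separate evidence. Pdk2 had a log2 change of 0.73 (SE 0.22, interval 0.21 to 1.25), Pdk4 of 0.60 (SE 0.39, interval -0.32 to 1.51), Pdk1 of 0.58 (SE 0.29, interval -0.09 to 1.25) and Pdk3 of -0.38 (SE 0.16, interval -0.76 to 0.002). In limma 0 of the 15 probe sets passed the adjusted threshold, against 0.472% of all, and the smallest adjusted p was 0.13, for Pdk2. At an unadjusted p under 0.05 there was 1 member probe set, that of Pdk2, and 22.4% of all probe sets. It was higher, as were 15.5% of all, while 6.89% of all were lower.

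Only series 2 and 3 held both groups, and there the differences were 0.45 and 0.54 for Pdk2, 0.15 and 0.39 for Pdk1, 0.59 and 1.42 for Pdk4 and -0.64 and -0.43 for Pdk3. Without series 1 the fitted change was 0.53 for Pdk2 (SE 0.12, limma adjusted p = 0.122) and 0.32 for Pdk1 (SE 0.15), and without series 2 it was 0.87 for Pdk1 (SE 0.39). That of Pdk4 was 0.05 (SE 0.45) without series 3 and 0.96 (SE 0.20) without series 4, and that of Pdk3 was -0.20 (SE 0.21) without series 2. In the same comparison 8 of 9 smooth muscle and pericyte markers, 8 of 9 macrophage and leukocyte markers and 9 of 10 fibroblast markers had a negative change, with medians of -0.71, -0.42 and -0.28, and the 11 cardiomyocyte markers had a median of 0.28. Their part in the kinase values was not tested. For Pdha1 the fitted change was 0.11 (SE 0.17) although both differences were negative (-0.08 and -0.09), since the fit also draws on the pairs of series 1 and 4. Without series 1, which holds the lowest Pdha1 array, it was -0.01 (SE 0.14), and without series 4 it was 0.004 (SE 0.16). Pdhb had a change of 0.30 (SE 0.17), Dld of 0.29 (SE 0.16), Pdp2 of 0.13 (SE 0.17) and Pdp1 of -0.09 (SE 0.15). The blebbistatin array was higher in both series for 9 of the 15 probe sets, against 38.7% of all, and lower in both for 5, against 25.3%. The groups did not overlap for 3 of the 15 (the main ones of Pdhb, Pdk1 and Pdk2), against 17.6% of all that were higher without overlap, and 0 were lower, against 6.9%. In 12 of the 15 the fitted change was positive, against 61% of all.

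**Figure D4:**
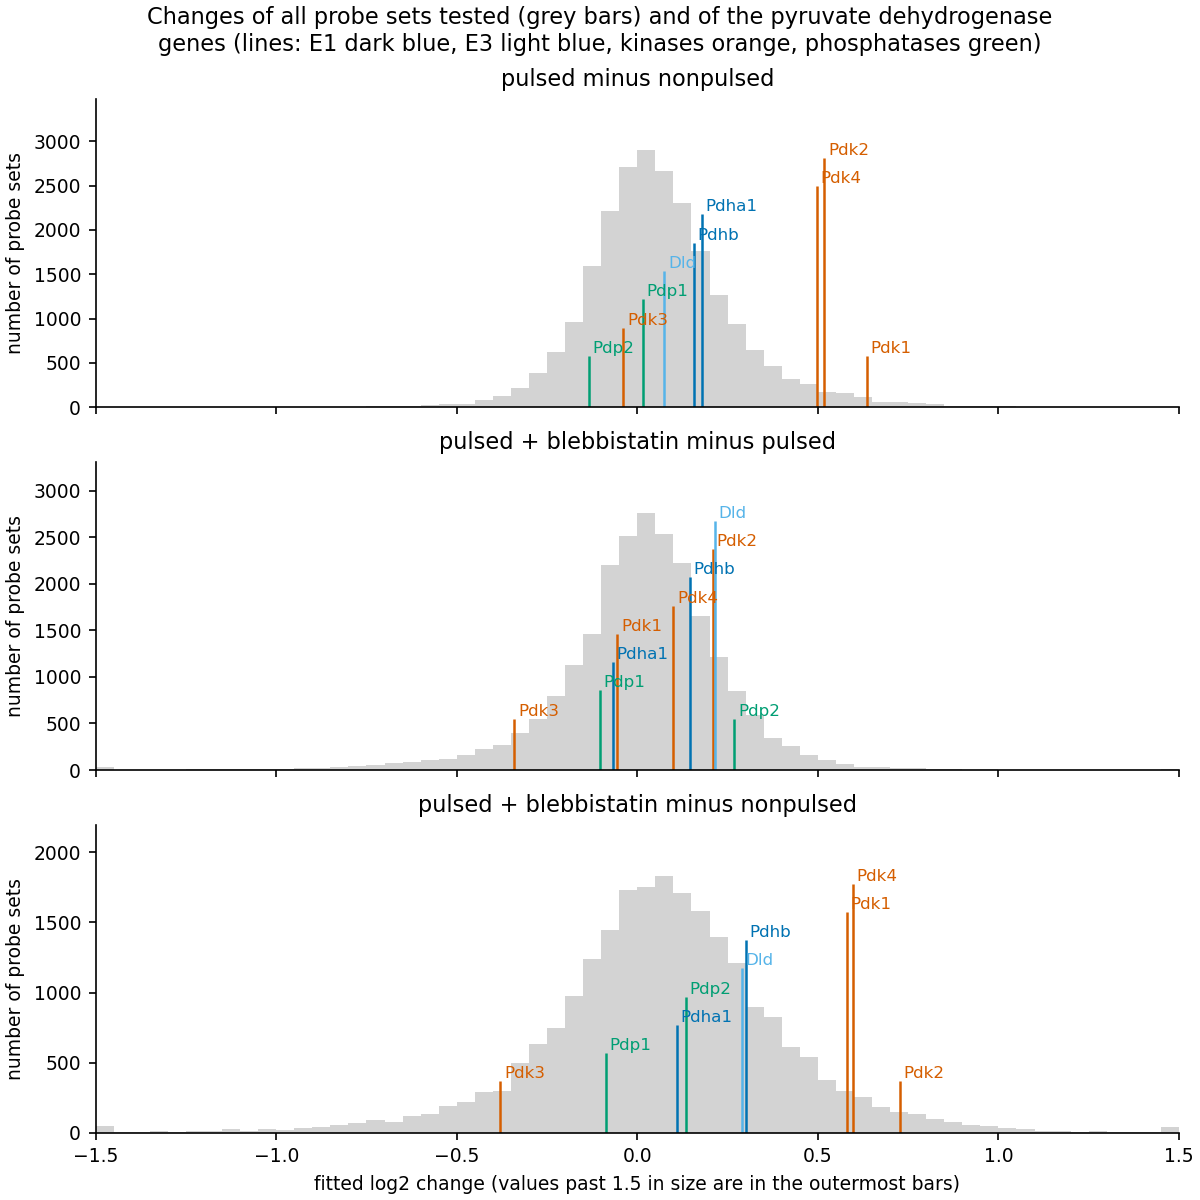
Number of probe sets by fitted log2 change (grey bars, 0.05 log2 units wide, all 23281 tested) in the 3 comparisons, with the main probe set of each gene as a labelled line whose height has no meaning. Pdk1, Pdk2 and Pdk4 lie in the right tail against nonpulsed cultures (0.50 to 0.73), while against pulsed cultures every gene lies between -0.34 and 0.27.

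Between culture series, only the main probe set of Pdp2 passed the adjusted threshold. The share of the 15 probe sets that passed was no higher than that of all probe sets. A joint test of the 4 series within the same limma fit, chosen after the values were seen, gave an adjusted p = 0.0325 for Pdp2, against 8.09% of all probe sets that passed it, and the fitted levels were 0.89 higher in series 2, 1.13 higher in series 3 and 0.50 higher in series 4 than in series 1. Its other probe set had effects of 0.74, 1.08 and 0.39 (adjusted p = 0.0541). None of the other members passed, and 3 of the 15 probe sets (both of Pdp2 and the second of Pdk3) had an unadjusted p under 0.05, against 28.4% of all. The call was lost without series 1 (limma adjusted p = 0.129), series 2 (0.153) or series 3 (0.149) and without most single arrays of these series. The joint test of the 3 treatment groups gave an adjusted p = 0.267 for the main probe set of Pdk2, the lowest of the set, and 0.00859% of all probe sets passed it. At an unadjusted p under 0.05 this was the 1 member probe set, against 16.4% of all.

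Other genes of the pathway were described by lists, and 0 of their members passed the adjusted threshold in any comparison. Partners of the complex were the E3-binding protein gene Pdhx, the phosphatase regulator Pdpr, and Lias and Lipt2, which take part in making the lipoyl group, 4 of 7 listed. All 4 had positive changes in the 3 comparisons, with medians of 0.20 for pulsed against nonpulsed, 0.27 for blebbistatin against pulsed and 0.43 for blebbistatin against nonpulsed cultures. With pulsing the median was 0.43, 0.18 and 0.02 in series 1, 2 and 3. Pdpr had changes of 0.23, 0.35 (SE 0.10, limma adjusted p = 0.316) and 0.59 (SE 0.12, adjusted p = 0.0752) and was higher in every series of each comparison. For the sister dehydrogenase complexes that share Dld, 9 genes were tested, with medians of 0.12 (0.47, 0.04 and -0.01 by series 1, 2 and 3), 0.23 and 0.30, and the largest changes were 0.47 for Bckdha in pulsed against nonpulsed cultures and 0.40 and 0.68 for Bckdhb with blebbistatin, against pulsed and nonpulsed.

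Pyruvate supply and disposal was covered by 14 tested genes, with medians of 0.18 (0.46, 0.07 and 0.03 by series 1, 2 and 3), 0.10 and 0.23 in the same order. The lactate exporter gene Slc16a3 had the largest change in pulsed against nonpulsed cultures (0.53, SE 0.51), made of 2.30 in series 1 and -0.21 and 0.02 in series 2 and 3, and Slc16a7, another monocarboxylate transporter gene, the most negative (-0.40, SE 0.31). Against pulsed cultures the malic enzyme gene Me2 had the most negative change (-0.38, SE 0.15) and Slc16a7 the most positive (0.36, SE 0.31). That of Slc16a7 was made of 1.07 in series 2 and -0.25 and -0.06 in series 3 and 4. The mitochondrial pyruvate carrier genes Mpc1 and Mpc2 had changes of -0.00 and 0.10 with pulsing and 0.14 and 0.09 with blebbistatin against pulsed cultures.

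Among 15 tested PPAR targets, 14 had a positive change in pulsed against nonpulsed cultures, with a median of 0.37 and 9 at an unadjusted p under 0.05, against 61.1% of all probe sets with a positive change and 7.71% past that threshold and higher. The median was 0.73 in series 1, against 0.14 in series 2 and 0.15 in series 3. In blebbistatin against pulsed cultures 14 were positive, against 55.5% of all, with a median of 0.27 and 5 at that threshold, against 6.09% of all. The largest change was that of Acot1, an acyl-CoA thioesterase, at 1.05 (SE 0.42) and 1.15 (SE 0.42), and the most negative were Plin2 at -0.09 (SE 0.21) and Angptl4 at -0.28 (SE 0.73). In series 4 the median of the list was 0.21, while Pdk4 was at -1.15. Angptl4 (-3.04), Plin2 (-0.57), Ucp3 (-0.43), Acot1 (-0.28) and Cpt1a (-0.10) were also lower there, and the other tested targets were higher. Acot1 had differences of 2.03 and 1.69 in series 2 and 3. Acot1 and Acot2 are close paralogs, so their probe sets may share signal. With blebbistatin against nonpulsed cultures all 15 targets had a positive change, against 61% of all probe sets, with a median of 0.56. Of these, 12 had an unadjusted p under 0.05, against 15.5% of all that were higher. The median was 0.62 in series 2 and 0.51 in series 3.

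Among 20 low oxygen targets, 19 had a positive change in pulsed against nonpulsed cultures, with a median of 0.24 and 4 at an unadjusted p under 0.05 and higher, against 61.1% and 7.71% of all probe sets. As for Pdk1, this rested on series 1, where the median difference was 0.78, against 0.04 in series 2 and 0.05 in series 3. In blebbistatin against pulsed cultures 7 were positive, against 55.5% of all, with a median of -0.04. The glucose transporter gene Slc2a1 had the largest change with pulsing (0.74, SE 0.23), and the collagen prolyl hydroxylase gene P4ha1 the most negative with blebbistatin against pulsed cultures (-0.67, SE 0.13, limma adjusted p = 0.175). With blebbistatin against nonpulsed cultures 15 of the 20 were positive, against 61% of all, with a median of 0.24. The median was -0.07 in series 2 and 0.05 in series 3.

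Of 17 tested regulators of the kinase genes, 15 had a positive change with pulsing (median 0.25) and 15 with blebbistatin against pulsed cultures (median 0.08), against 61.1% and 55.5% of all probe sets. With pulsing the median was 0.45, 0.27 and 0.14 in series 1, 2 and 3. With blebbistatin against nonpulsed cultures 14 were positive, against 61% of all, with a median of 0.53 (0.52 in series 2 and 0.32 in series 3). Of these, 9 had an unadjusted p under 0.05, against 15.5% of all that were higher. The coactivator gene Ppargc1b had the largest change with pulsing, 1.03 (SE 0.33), and the retinoid receptor gene Rxrg the largest against pulsed cultures, 0.64 (SE 0.24). Ppara itself lay below the filter. Of the low oxygen factor genes, Hif1a was at -0.03 with pulsing and 0.07 with blebbistatin against pulsed cultures. Epas1 was at 0.26 (SE 0.13) and 0.58 (SE 0.13, limma adjusted p = 0.227) in the same order. For Epas1 the differences with blebbistatin against pulsed cultures were 0.58, 0.46 and 0.56 in series 2, 3 and 4.

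The genes whose log2 signal ran most like that of each kinase were found by Pearson's r over the 10 arrays among 11845 genes, as a description, since the arrays share 4 series and the genes were picked for their r. For Pdk1 they were Gpi, which encodes the glycolytic enzyme glucose-6-phosphate isomerase (r = 0.97), Mindy2 and Npepps (r = 0.97 and 0.96). For Pdk2 they were Mccc1, a subunit of a carboxylase of leucine breakdown (r = 0.99), Grsf1 and Dhrs11 (r = 0.98 each). For Pdk3 they were Crym, Cenpp and Adamts19 (r = 0.95, 0.94 and 0.93), and for Pdk4 Hilpda, a lipid droplet protein gene (r = 0.91), Chrnd and Stmn4 (r = 0.90 and 0.89). Like Pdk4, Hilpda was lower in the blebbistatin array of series 4 (-1.19) and higher in those of series 2 and 3 (0.40 and 0.27).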

How the data were processed

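Trizol was used to extract total RNA, from which biotinylated cRNA was prepared for Affymetrix rat arrays, per the labels' protocols. The authors deposited log2 values, 1 per probe set and array. The submitters' processing notes name PLIER and Affymetrix Expression Console 1.1. Settings and log base were not given in the sources used here, and base 2 was taken from the values. Array medians lay between 6.57 and 6.78 (log2), so no further scaling was applied. Precision is limited by how few arrays there are.

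Of 31099 probe sets, 57 controls and the lowest 25% by mean (below 5.09) were left out, which kept 23281. Probe sets were named from the platform annotation (20826 with 1 symbol, 436 with several, 9780 with none; 0 symbols were updated through GRCr8 gene identifiers). A gene's main probe set is the one with the highest mean. Every probe set was fitted with limma (version 3.58.1, R 4.3.3; lmFit and eBayes, two-sided, Benjamini-Hochberg over all probe sets), using the 10 arrays with series as a block. A fitted change therefore also draws on arrays outside the pair compared. Groups and series came from the titles, whose dates pair the arrays. Deviations from group means correlated at 0.35 to 0.63 within a series (8 pairs) and at -0.58 to 0.50 between series (25 pairs, median -0.26), a contrast that subtracting group means partly builds in. The submitters' design text mentions 3 arrays for each treatment while the labels give 4 pulsed arrays, and all were used. Members, lists and tests were chosen with earlier results of these data known, and the series test after its values were seen. All members are named, with the largest and most negative change of each other list and the 3 genes most like each kinase. Pdpr, Mpc1, Mpc2, Hif1a, Epas1, Ppara, Acot2, Ucp3 and Cpt1a were added after their values were seen. Alternatives covered the block (statmod 1.5.0), the arrays, scaling, filter, probe set rule, prior and left-out arrays and series.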

Additional observations from a re-analysis of the deposited data

Results flagged for a closer look

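In pulsed cultures, the other probe set of Pdk1 (1368079_at) had a log2 signal of 9.99 on the array of series 1, while the next array was at 9.09 and the lowest at 8.91. The gap to the nearest array, as a ratio to the range of the 4 arrays, was 0.837, above the limit used for a sample far from the others. Of 15 probe sets looked at in pulsed cultures it was the 1 case, and chance gives about 1 in 20.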

How the results depend on the processing

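Under 24 alternatives per comparison, 0 of the 354 refitted member values in each comparison passed the threshold, with a lowest adjusted p of 0.349 for pulsed minus nonpulsed, 0.225 for blebbistatin minus pulsed and 0.063 for blebbistatin minus nonpulsed cultures. The sign differed from the reported one in 37, 42 and 18 of these values. Across all probe sets, the count past the threshold was 3 for blebbistatin minus pulsed and 110 for blebbistatin minus nonpulsed cultures. With no replicate block, that is without pairing by culture series, it was 5 and 46, and with the block as a random effect 14 and 1212. With only the compared groups it was 12 and 2, and with only the series that hold both groups 48 and 31. With no filter it was 0 and 1, with the lowest 50% left out 6 and 70, and with a trended prior 10 and 216. Quantile normalization gave 67 and 1 probe set per gene 63 for blebbistatin minus nonpulsed cultures. Leaving out 1 array or series gave 0 to 48 and 0 to 69. The Pdp2 range between series was 1.13 and lost its call with no filter (1.13, adjusted p = 0.0591), and leaving out 1 array or series gave 0.59 to 1.39. The cause was not tested. With 10 arrays in 4 series the fit had 4 residual degrees of freedom.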
